A study of Mus musculus with 2 samples.

Results

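The 9 adaptor genes described here encode proteins that choose substrates for cullin ubiquitin ligases, and they were measured in mouse gastrocnemius, a muscle of the calf. They were chosen by name in the deposited gene annotation: the kelch genes Klhl31, Klhl40, Klhl41, Klhl30 and Klhl21, and the ankyrin-SOCS genes Asb2, Asb5, Asb8 and Asb11. They are 9 of the 14675 annotated genes with at least 1 read in either library. Long-read RNA sequencing had been run on 2 libraries, each from 2 µg of RNA, of male B6CASTF1/J mice aged 2 months, which are first-generation hybrids of C57BL/6J and CAST/EiJ. No treatment, transgene or deletion is named in the labels. The labels call the libraries biological replicates and number the males differently, but give both the same donor identifier. Whether the spread between them is between animals or technical cannot be told from the labels. Both libraries belong to 1 group, so the design holds no contrast of conditions, and p-values are not given.

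Cullin ubiquitin ligases attach ubiquitin to proteins that an adaptor brings to them. Kelch adaptors bind the cullin CUL3 through a BTB domain and hold their target with a kelch propeller, whereas ankyrin-SOCS adaptors bind elongins B and C and the cullin CUL5 through a SOCS box and hold their target with ankyrin repeats. Several members of both families are abundant in skeletal muscle, where they act on sarcomere and cytoskeleton proteins. Klhl40 binds and stabilises nebulin and leiomodin 3 of the thin filament, and human mutations in KLHL40 and KLHL41 cause nemaline myopathy. Asb2 directs the degradation of filamins, Klhl31 acts on filamin C, and Klhl21 is known for its part in cell division with Aurora B.

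Levels are given as reads per 1000000 reads of annotated genes (CPM), over 1107128 such reads in replicate 1 and 1402875 in replicate 2. A long read is counted once whatever the length of the RNA it comes from, so the levels were not divided by length. The leading transcripts of the 9 adaptor genes are 1100 to 6494 nt long, and whether the longest were under-sampled was not tested. Shares of reads carry Wilson 95% intervals, and a mean ± SD is over both libraries (n = 2). The reads have no molecular identifiers, so amplified copies cannot be told from separate molecules, and all intervals cover counting error only. In whole muscle, fewer cells of a type and less RNA per cell cannot be told apart. All 7 defining skeletal muscle fibre markers were read in both libraries, while 5 of 6 cardiac markers had no read. Slow fibre markers summed to 3025 CPM in replicate 1 and 9110 CPM in replicate 2 (10 of 10 higher in replicate 2), and fast fibre markers to 229954 and 214186 CPM (3 of 10 higher in replicate 2). The fast list was divided, with Myh1 and Myh2 at 3.09 and 3.15 times their level in replicate 1 and Tnni2 and Mylpf at 0.547 and 0.630 times. The part of this difference in fibre markers in the values below was not tested.

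There were 2 pairs of the 9 adaptor genes with a shared coding exon structure, and their coding exons of equal length were compared. Coding exons of unequal length were not compared, among them coding exon 1 of Klhl40 and Klhl41 (1152 and 1110 bases). Whether reads of one gene were taken for the other was not tested. In Asb5-201 and Asb11-202, 5 of 7 coding exons had equal lengths, and 59.8% of the 666 bases compared at the same position were identical. In Klhl40-201 and Klhl41-201, 4 of 6 coding exons had equal lengths and 58.5% of 550 bases were identical. Of the exons compared, those of Asb5 and Asb11 are most alike in coding exon 2, of 80 bases (mm10, plus strand, chr8:54580826-54580905 and chrX:164445729-164445808). In the lines that follow, from the GENCODE M21 transcripts, capitals mark the bases that differ.
Asb5 coding exon 2: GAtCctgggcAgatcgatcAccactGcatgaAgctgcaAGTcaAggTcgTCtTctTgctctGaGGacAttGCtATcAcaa
Asb11 coding exon 2: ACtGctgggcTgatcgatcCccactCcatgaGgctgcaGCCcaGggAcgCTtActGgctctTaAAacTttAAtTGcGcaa
The identity was 68.8% in this exon, which is far from a near-identical copy.
Of the exons compared, those of Klhl40 and Klhl41 are most alike in coding exon 5, of 147 bases (mm10, plus strand, chr9:121782530-121782676 and chr2:69679684-69679830), with 66.7% identity.
Klhl40 coding exon 5: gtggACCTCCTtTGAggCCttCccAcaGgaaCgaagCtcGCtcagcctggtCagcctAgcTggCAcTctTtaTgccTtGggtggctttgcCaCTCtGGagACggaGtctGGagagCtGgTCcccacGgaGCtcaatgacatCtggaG
Klhl41 coding exon 5: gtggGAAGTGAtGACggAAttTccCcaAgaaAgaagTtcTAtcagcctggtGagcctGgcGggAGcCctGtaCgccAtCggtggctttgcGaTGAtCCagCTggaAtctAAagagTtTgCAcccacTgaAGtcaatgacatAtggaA

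Asb2 was by far the most abundant of the 9 adaptor genes in both libraries. Asb2 (chr12:103321142-103356001, minus strand) had 1229 reads in replicate 1 and 1193 in replicate 2, or 1110.1 and 850.4 CPM. The mean was 980.2 ± 184 CPM, and Asb2 ranked 60th of all genes in replicate 1 and 111th in replicate 2. It made up 53.5% (51.5 to 55.6%) of all reads of the 9 adaptor genes in replicate 1 and 47.5% (45.5 to 49.4%) in replicate 2. Its mean was 5.32 times that of Klhl40, the next gene, and the libraries did not overlap.

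Klhl40, Asb11 and Asb5 lay close together between 138 and 191 CPM. Klhl40, the thin filament stabiliser (chr9:121777607-121783818, plus strand), had 208 and 253 reads, or 188 and 180.3 CPM (mean 184 ± 5.32). Asb11 (chrX:164436994-164459170, plus strand) had 186 and 268 reads, or 168 and 191 CPM (mean 179.5 ± 16.3). Asb5 (chr8:54529580-54587842, plus strand) had 206 and 194 reads, or 186 and 138 CPM (mean 162 ± 33.8). The order of Klhl40 and Asb11, and of Asb11 and Asb5, changed between the libraries, so these neighbours did not differ beyond their spread.

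The other 5 genes followed from 119.8 to 44.2 CPM. Klhl21 (chr4:152008803-152017680, plus strand) had 122 and 168 reads, or 110.2 and 119.8 CPM (mean 115 ± 6.76). Asb8 (chr15:98134637-98165625, minus strand) had 112 and 151 reads, or 101 and 108 CPM (mean 104 ± 4.58). Both libraries placed Klhl21 above Asb8, and both placed Asb8 above the remaining genes. Klhl31, the filamin C regulator (chr9:77636500-77660127, plus strand), had 89 and 113 reads, or 80.4 and 80.5 CPM (mean 80.5 ± 0.11). This value includes unspliced reads of the genomic class, described below, and was 41.1 CPM without them. Klhl41 (chr2:69670120-69684230, plus strand) had 82 and 110 reads, or 74.1 and 78.4 CPM (mean 76.2 ± 3.07). Klhl31 and Klhl41 were only 1.06 times apart in the mean. Klhl30 (chr1:91351016-91362416, plus strand) was lowest with 62 reads in each library, or 56.0 and 44.2 CPM (mean 50.1 ± 8.35). Without the genomic class, or with annotated transcripts only, Klhl31 was lower (41.1 against 48.2 CPM, and 50.8 against 54.1 CPM).

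**Figure D1:**
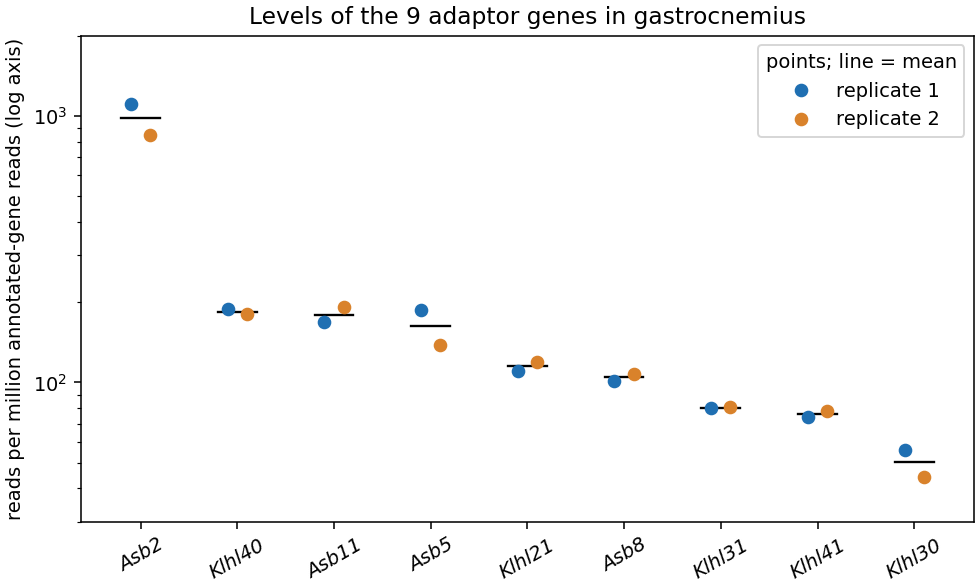
Level of each of the 9 adaptor genes (CPM, log axis), 1 point per library and a line for the mean. Asb2 stands alone at 850.4 and 1110.1, and the other genes run from 191 down to 44.2.

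None of the 9 adaptor genes was over 2-fold apart between the libraries, where 4.42% of the 4294 genes with at least 50 summed reads were (190 genes, either direction). With these few genes, a count of 0 is near that background. On the log2 scale, the median ratio of replicate 2 to replicate 1 was 0.00 for the 9 genes and 0.11 for all 4294, and 5 of the 9 were higher in replicate 2. With median-ratio scaling, under which the median of all genes was near 0, 2 of the 9 were higher there. Asb2 and Asb5 had ratios whose counting intervals left out 1. The ratio was 0.766 for Asb2 (exact interval 0.707 to 0.830) and 0.743 for Asb5 (0.608 to 0.909), so both read lower in replicate 2, the library with more slow fibre marker RNA, and did so under each scaling and read set tried. Klhl31 had a ratio of 1.002 (0.752 to 1.34), and the highest was that of Asb11 at 1.14 (0.940 to 1.38). The intervals of Asb5 and Asb11, the pair of like exon structure, did not overlap.

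The strand opposite to Klhl31 carried far more reads than Klhl31 itself. Models of the antisense class, which TALON gives to transcripts opposite an annotated gene, had 2238 reads over Klhl31 in replicate 1 against 89 sense reads, and 3780 in replicate 2 against 113. The antisense share was 96.2% (95.3 to 96.9%) in replicate 1 and 97.1% (96.5 to 97.6%) in replicate 2, or 96.6 ± 0.65%. For each sense read there were 25.1 antisense reads in replicate 1 and 33.5 in replicate 2. On the scale used for genes this amounts to 2021 and 2694 CPM, above the level of Asb2 in both libraries. The antisense level was 1.33 times as high in replicate 2 (exact interval 1.26 to 1.41), while the sense level of Klhl31 was 1.002 times as high. The whole antisense class also took a larger share of endogenous reads in replicate 2 (2.66%) than in replicate 1 (1.70%), and the share of that class at Klhl31 was lower there, as given below.

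Klhl31 was the only one of the 9 adaptor genes with an antisense share of at least 10% in each library. Among all 4298 genes with at least 20 sense reads in each library, 4.61% reached that share in both (198 genes), so 1 of 9 is a count too small to set apart from the background. The share itself was the highest of the 4298 genes in each library, and the median gene had 0%. Of all antisense-class reads, the Klhl31 locus held 11.6% in replicate 1 and 9.82% in replicate 2. It was the most read of 6484 antisense loci in replicate 1, ahead of one with 2119 reads. It was second of 10605 in replicate 2, behind one with 4620 reads and ahead of one with 562.

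**Figure D2:**
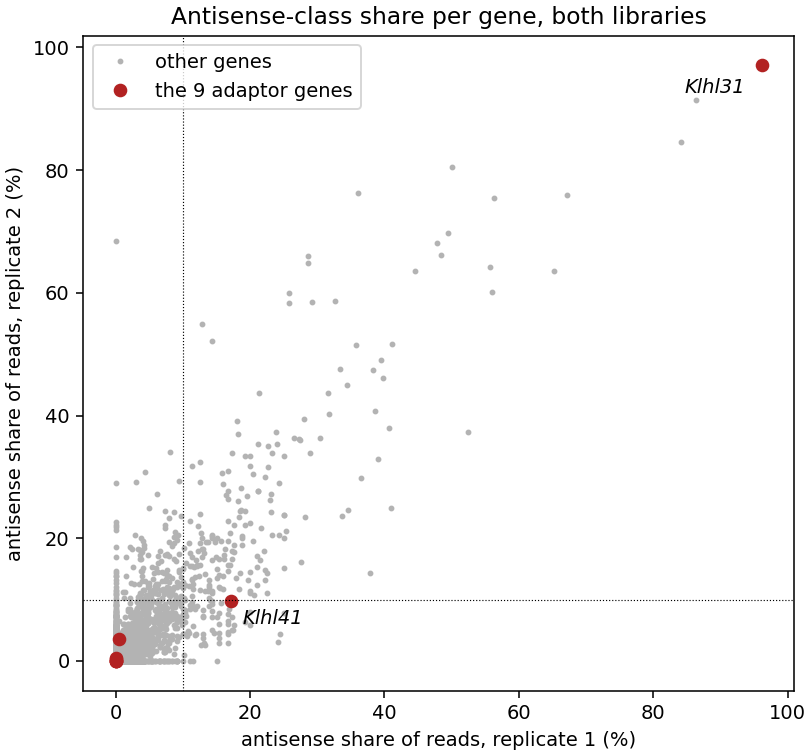
Antisense share of each gene with at least 20 sense reads in each library, replicate 1 against replicate 2 (%), with dotted lines at 10%. Klhl31 lies at the top right corner (96.2 and 97.1%), and Klhl41 lies past the line only in replicate 1 (17.2 and 9.84%).

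Nearly all of the antisense reads at Klhl31 belonged to a single unspliced model inside the last exon. The model spanned chr9:77656524-77658201 (mm10, minus strand, 1678 nt) with 2237 reads in replicate 1, and chr9:77656631-77660127 (3497 nt) with 3780 reads in replicate 2. The last exon is 5001 nt long, and 4268 nt of it are 3′ untranslated. The model began 665 and 772 nt past the stop codon, so it lay within the untranslated part in both libraries. Its outer end in replicate 1, at 77658201, is also the end of an unspliced sense model there, and in replicate 2 it is the annotated gene end. Model ends of this kind are the positions to which reads were assigned, and the files do not give the ends of single reads. The only spliced model of the antisense class at Klhl31 had 1 read, in replicate 1, across the first exon.

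A run of 24 T stands in the sense strand of Klhl31 at chr9:77656645-77656668, and so a run of A in the antisense strand. It begins 14 nt inside the antisense model of replicate 2 and 121 nt inside that of replicate 1, close to the end where an antisense transcript finishes. The 30 bases at chr9:77656642-77656671, plus strand, are shown because they lie near the end of the antisense models, with the run in capitals.
Klhl31 last exon: ttcTTTTTTTTTTTTTTTTTTTTTTTTcct
Runs of at least 20 T (in the sense strand only) occur in 1.18% of 58797 protein-coding transcripts of GENCODE M21. They occur in 64 of the 4183 protein-coding genes tested for an antisense share (1.53%), and in 14 of the 195 of these that reached 10% in both libraries (7.18%). Klhl31 is itself in both sets of genes, and these counts take no account of transcript length or of where the run lies. The part of the run in the antisense count was not tested.

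**Figure D3:**
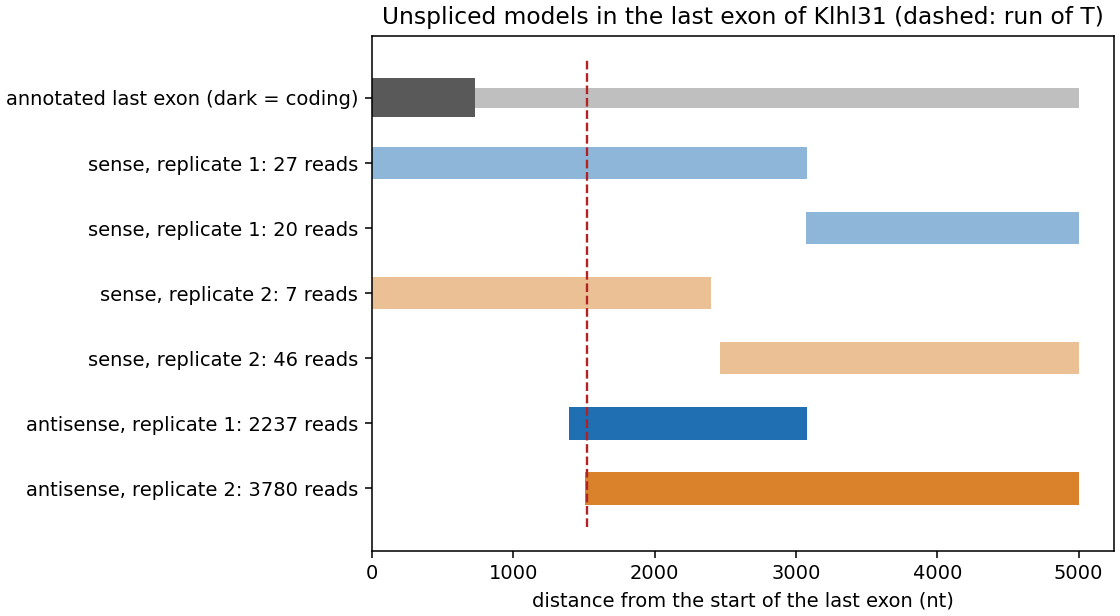
Unspliced models in the last exon of Klhl31 by distance from its start (nt), with the annotated exon on top (dark, coding), sense models in pale colour and antisense models in full colour, and the run of T dashed. The antisense models, of 2237 and 3780 reads, reach 121 and 14 nt past the run on its left.

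The sense reads of Klhl31 were also unlike those of the other adaptor genes. Klhl31-201, its annotated transcript of 3 exons, had 37 reads in replicate 1 and 47 in replicate 2. The genomic class, for reads that overlap a gene without matching its splice junctions, held 52.8% (42.5 to 62.8%) of its sense reads in replicate 1 and 47.8% (38.8 to 56.9%) in replicate 2. In the other 8 genes the genomic share ran from 0% to 11.3%, and over all annotated genes it was 2.32% and 3.01%. All but 1 of these 47 and 54 reads lay inside the last exon. In replicate 2, 46 of them were in 1 model that reached the gene end. Reads with the last intron of Klhl31-201 also held the first intron in 37 of 40 cases in replicate 1 and 48 of 57 in replicate 2.

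Klhl41 was the other kelch gene with antisense reads, at a far lower level. It had 17 antisense reads in replicate 1 and 12 in replicate 2, a share of 17.2% (11.01 to 25.8%) and 9.84% (5.72 to 16.4%). Of these, 12 and 9 lay across its last exon, in models that began at 69683488 and 69683609, and 5 and 3 in a model inside an intron (chr2:69680743-69681755). Klhl41 was also the only other of the 9 with a run of at least 20 T in the sense strand, at chr2:69683815-69683834, which is 327 and 206 nt inside the last-exon models. A spliced model of 2 exons ran the other way from the start of Klhl41, with 3 reads in replicate 1 and 6 in replicate 2 and the same intron in both (chr2:69668976-69669740, minus strand). The authors' class for it is intergenic, and it overlaps Klhl41 by 1 base.

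The ankyrin-SOCS genes had next to no antisense reads. Asb2 had 1 and 4 (0.081% and 0.33%), Asb5 had 0 and 1, and Asb11 had 1 and 10 (0.53% and 3.60%). Of the 10 in Asb11, 5 lay in an intron (chrX:164448002-164448463). Klhl40, Klhl30, Klhl21 and Asb8 had 0 in both libraries. Taking a count of 0 to allow up to 3 reads, which is a narrower limit than the Wilson upper end (1.496 to 5.83% over these values), the share could be up to 1.42% and 1.17% for Klhl40, 4.62% in both libraries for Klhl30, 2.40% and 1.75% for Klhl21, and 2.61% and 1.95% for Asb8.

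When every model on the opposite strand was counted, whatever its class, Klhl40, Asb5 and Klhl41 also passed 10% in both libraries. No share of all genes under this rule is given here, so the count cannot be set against a background. Models of annotated neighbours reach into Klhl40 and Asb5. An unspliced model assigned to Hhatl, the convergent neighbour of Klhl40, covered the whole last exon of Klhl40 on the other strand, with 63 reads in replicate 1 and 117 in replicate 2. They made 23.2% and 31.6% of the reads of both strands there. Spcs3, a subunit of the signal peptidase, reached past the annotated start of Asb5-202 with 49 and 70 reads. No read in either library used the first intron of Asb5-202, so this overlap lies outside the part of Asb5 that was read.

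**Figure D4:**
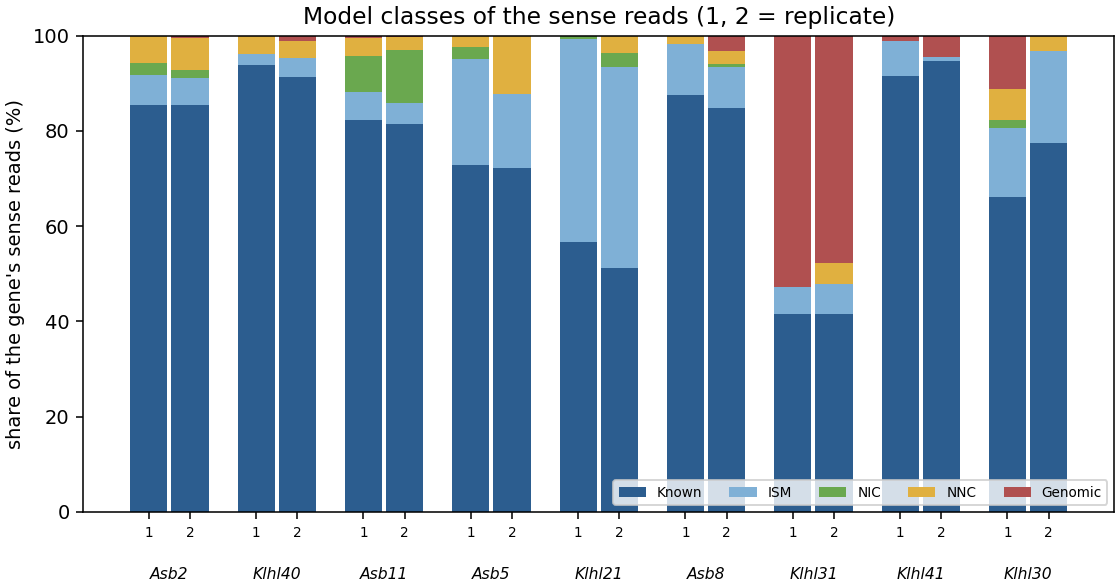
Share of each gene's sense reads by model class (%), 1 bar per library. The genomic class takes 52.8 and 47.8% of Klhl31, and partial chains (ISM) take 42.6 and 42.3% of Klhl21.

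Each of the 9 adaptor genes had the same leading intron chain in both libraries, and in each it was an annotated one. No share of all genes is given beside this count, so whether it is usual cannot be told. The leading chain's share of the reads left after the genomic class was highest for Klhl41-201 (92.6% and 99.0%) and Klhl40-201 (93.8% and 92.4%). It was 84.8% and 84.6% for Asb2-201, 88.1% and 79.7% for Klhl31-201, 74.5% and 77.4% for Klhl30-201, and 72.8% and 72.2% for Asb5-201. The share was lowest for Asb8-202 (60.7% and 64.4%), Klhl21-201 (56.6% and 51.2%) and Asb11-201 (51.9% and 53.2%). Exactly annotated transcripts held 81.4% and 80.4% of the reads of the 9 genes together, against 66.2% and 65.5% over all annotated genes. These summed shares lean on Asb2, which supplied about as many reads as the other 8 genes together.

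In Klhl21 the reads outside the leading chain were mostly partial chains, whereas in Asb8 and Asb11 another annotated transcript took a large share. Partial chains made 42.6% of its reads in replicate 1 and 42.3% in replicate 2. The most read was the annotated chain without its first intron, with 35 and 44 reads. Of the reads with the last intron of Klhl21, 65.7% (56.2 to 74.1%) and 62.4% (54.2 to 70.0%) also had the first. The same measure was 99.5% and 97.6% for Klhl40, and 92.5% and 84.2% for Klhl31, which has the longest transcript of the 9. The measure covers only reads with the last intron, so it leaves out the genomic-class reads inside the last exon of Klhl31. Whether the shorter chain of Klhl21 is a shorter RNA or a truncated read of the longer one was not tested.

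Asb11 was read from 2 first exons. Reads that spliced into the shared exon 2 used the first intron of Asb11-201 in 119 cases in replicate 1 and 177 in replicate 2. These were 65.4% and 67.8% of such reads. They used that of Asb11-202, whose first exon lies upstream, in 60 and 83 cases, or 33.0% and 31.8%. The split between introns was thus nearly the same in both libraries, at 66.6 ± 1.72% for that of Asb11-201. It is not the split between first exons, for the reason given below. The annotated coding sequence is 294 codons in Asb11-201 and 323 in Asb11-202. The first junctions are shown because they tell the transcripts apart, with exon 2 in capitals (plus strand, chromosome X).
Asb11-201: acacatttcagggagACTGCTGGGCTGATC
Asb11-202: atggtggactgtcagACTGCTGGGCTGATC
The upstream first exon was joined to the downstream one through an annotated intron (chrX:164437226-164438006) in 13 and 17 reads (6.99% and 6.34% of the gene). Of these, 9 and 16 reads in 1 chain of 8 exons also held the first intron of Asb11-201. They are thus among the 119 and 177 reads above, although they hold the upstream first exon. A pair of Asb11 introns absent from the annotation recurred. The first shortened exon 4 by 53 nt (6 and 8 reads), and the other skipped the exon of 135 nt after it (7 and 10 reads).

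Asb8 was read from 1 first exon with a pair of acceptors 4 nt apart. The acceptor of Asb8-202 had 68 reads in replicate 1 and 97 in replicate 2, and that of Asb8-201 had 31 and 35. The share of Asb8-202 was 68.7% (59.0 to 77.0%) and 73.5% (65.4 to 80.3%), or 71.1 ± 3.39%. Both transcripts encode the same 288 codons, and the shift lies before the start codon. The junctions are given with exon 2 in capitals (minus strand, chromosome 15).
Asb8-202: ctgacccgcggttcgGCAGTTTGGAGCATG
Asb8-201: ctgacccgcggttcgTTTGGAGCATGTGAA
The first exon of Asb8-203 and Asb8-204, further upstream, was used by no read in either library.

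Almost all Asb2 reads with the intron after exon 3 began upstream of the internal start of the gene. Of reads with the intron after exon 3, 99.4% (98.8 to 99.7%) in replicate 1 and 99.1% (98.4 to 99.5%) in replicate 2 also held an intron upstream of that exon, as Asb2-201 does. Fewer reads reached the distal first exon. Of reads with the last intron of Asb2-201, 89.2% and 89.5% also held its first intron. Asb2-204, which starts inside the gene and encodes 586 codons in place of 634, had 6 and 10 reads. All of its introns are also in Asb2-201, and whether these reads are truncated reads of Asb2-201 was not tested. The 250 bases before the distal and the internal start, from RefSeq (GRCm38.p6, minus strand), are shown because the reads assigned to them divide so unequally.
Asb2 distal, chr12:103356002-103356251: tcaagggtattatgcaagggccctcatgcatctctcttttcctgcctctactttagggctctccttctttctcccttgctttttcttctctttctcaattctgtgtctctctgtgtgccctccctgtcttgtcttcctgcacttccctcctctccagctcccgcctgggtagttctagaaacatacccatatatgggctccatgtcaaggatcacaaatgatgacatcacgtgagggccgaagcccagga
Asb2 internal, chr12:103338391-103338640: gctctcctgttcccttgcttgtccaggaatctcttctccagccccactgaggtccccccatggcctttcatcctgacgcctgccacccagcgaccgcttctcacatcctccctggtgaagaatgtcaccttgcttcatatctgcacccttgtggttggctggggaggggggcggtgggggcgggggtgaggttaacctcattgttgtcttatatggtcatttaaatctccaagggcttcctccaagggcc
Both windows were searched on both strands for the E-box CAGCTG, the MEF2 site and TATAAA, of which neither held any. These motifs are in 13.0%, 2.92% and 12.4% of all 32851 RefSeq windows of that length. The shorter E-box pattern CANNTG, which includes CAGCTG, was found at 2 places in the distal window and at none in the internal one, and is in 66.2% of windows.

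Asb2 also had splice forms outside GENCODE M21 that recurred at low shares. A donor 4 nt inside exon 9 was used by 28 reads in replicate 1 and 39 in replicate 2, against 1184 and 1140 at the annotated donor. That is 2.31% (1.60 to 3.32%) and 3.31% (2.43 to 4.49%). The last 30 bases of exon 9 are given with the 4 bases that this donor leaves out in capitals (minus strand, chromosome 12).
Asb2-201 exon 9 end: aggactgggctgtcatcaaggagaagGCAG
A first exon upstream of the annotated start joined exon 2 in 22 and 16 reads (intron chr12:103345933-103359026). An added exon between exons 1 and 2 was joined to exon 2 in 28 and 20 reads (intron chr12:103345933-103351516). Each was seen in both libraries, and together with the rarer introns they left 95.3% and 96.2% of the joins into exon 2 to the annotated first exon.

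Asb5 had the largest share of starts outside GENCODE M21. Its annotated first exon supplied 150 and 140 reads into exon 2, or 81.1% (74.8 to 86.1%) and 84.3% (78.0 to 89.1%). Donors at 54571735 and 54571510, which are 21095 and 20870 nt past the annotated first exon, supplied 26 and 17 reads and 6 and 5 reads. A donor at 54577526 supplied 2 and 4 reads. RefSeq lists Asb5 starts at 54571439 and 54577451, shortly upstream of these donors. The 250 bases before the annotated start and before the first of these are shown (GRCm38.p6, plus strand), with TATAAA and the MEF2 site in capitals in either direction.
Asb5 annotated start, chr8:54550081-54550330: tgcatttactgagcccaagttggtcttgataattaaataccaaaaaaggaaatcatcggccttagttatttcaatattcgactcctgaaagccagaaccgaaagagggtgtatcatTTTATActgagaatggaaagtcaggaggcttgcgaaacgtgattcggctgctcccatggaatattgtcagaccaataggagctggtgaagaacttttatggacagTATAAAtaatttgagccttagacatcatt
Asb5 second start, chr8:54571189-54571438: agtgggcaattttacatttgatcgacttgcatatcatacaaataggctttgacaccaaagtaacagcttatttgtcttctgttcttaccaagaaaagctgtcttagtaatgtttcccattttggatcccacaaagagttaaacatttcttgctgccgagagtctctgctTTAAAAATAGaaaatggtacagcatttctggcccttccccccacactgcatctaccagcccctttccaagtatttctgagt
The first window held TATAAA at 2 places and no MEF2 site, and the second held 1 MEF2 site and no TATAAA. Among the windows of the other adaptor genes in the RefSeq table, those of Klhl41, Klhl21 and Klhl40 held 1 CAGCTG each, and that of Klhl41 also held 1 MEF2 site. The table matched 8 of the 9 genes, and Klhl30 is not shown.

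**Figure D5:**
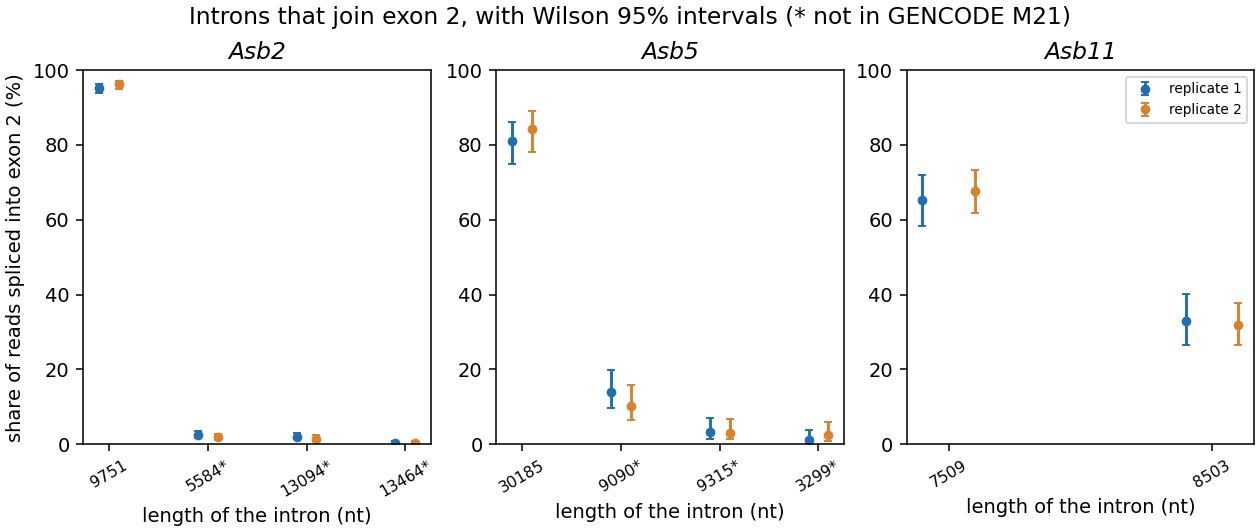
Share of the reads spliced into exon 2 (%) that used each intron, for Asb2, Asb5 and Asb11, with Wilson 95% intervals and introns named by length. The intron from the annotated first exon takes 95.3 and 96.2% in Asb2, 81.1 and 84.3% in Asb5, and Asb11 divides between 2 annotated introns.

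Across the 9 adaptor genes, 12 introns outside the leading chain had at least 5 reads in each library, and 9 of these are not in GENCODE M21. This minimum was chosen after the values were seen. No count over all genes is given beside it, so whether such introns are usual cannot be told. Asb2 and Asb11 had 4 each, Asb5 had 2, and Klhl40 and Asb8 had 1. The one in Klhl40 was an 82-nt intron beyond the annotated gene end (chr9:121784351-121784432), with 7 and 14 reads. Klhl31, Klhl41, Klhl30 and Klhl21 had none, at 62 to 168 reads per library. Genes with more reads can show more rare introns, and the part of depth in this order was not tested.

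RNA of each listed gene of the CUL3 and CUL5 ligase cores was read in both libraries. Of the CUL3 ligase core list, 7 of 7 genes had at least 10 summed reads, with a median of 83.3 CPM. The scaffold Cul3 had 190 and 277 CPM, the neddylation enzyme Ube2m 202 and 246, the RING subunit Rbx1 179.7 and 146, and the modifier Nedd8 90.3 and 76.3. Of the CUL5 core list, 5 of 5 genes had at least 10 reads, with a median of 48.8 CPM. The adaptor bridge Elob had 259 and 236 CPM and Eloc 85.8 and 93.4, the scaffold Cul5 had 40.6 and 57.0, and the neddylation enzyme Ube2f had 37.9 and 58.5. Of the 14675 annotated genes with reads in either library, 8626 had at least 10 summed reads, and their median was 19.4 CPM. Asb2 alone was thus above each of these core genes in both libraries, and Elob was the most abundant of them in replicate 1.

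The COP9 signalosome, which removes Nedd8 from cullins, had 9 of 9 genes with at least 10 reads and a median of 96.2 CPM. Cops6 had 196 and 210.3 CPM, Cops4 195 and 196, Cops7a 174 and 168, and Cops8 128 and 159. Of 13 reported partners and substrates, 12 had reads and 10 had at least 10. The intermediate filament protein Des had 3787 and 4092 CPM, the sarcomere assembly protein Nrap 352 and 652, the thin filament ruler Neb 203 and 195, and the filamin Flnc 103 and 99.1. Nrap was thus 1.85 times as high in replicate 2, the largest difference of these 4.

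Other listed members of the families were mostly lower than the 9 adaptor genes. The lists were chosen and need not hold every member. Of 31 other kelch genes that were listed and found in the annotation, 22 had at least 10 reads, with a median of 21.6 CPM. Keap1, the sensor of oxidative stress, had 61.4 and 60.6 CPM, Klhl8 49.7 and 69.1, Klhl33 52.4 and 42.1, and Klhl22 49.7 and 36.4. Of 14 other listed ankyrin-SOCS genes, 12 had at least 10 reads, with a median of 16.2 CPM. Asb14 had 101 and 99.8 CPM, Asb10 93.0 and 73.4, Asb13 31.6 and 27.8, and Asb16 23.5 and 24.2. Asb14 and Asb10 therefore lay in the range of the less abundant of the 9 adaptor genes.

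Between the libraries, every pathway list had a median shift under 2-fold, with the largest in the CUL5 core. On the log2 scale, the median ratio of replicate 2 to replicate 1 was 0.28 for the CUL3 core (5 of 7 genes higher in replicate 2), 0.44 for the CUL5 core (4 of 5), 0.10 for the COP9 signalosome (6 of 9), 0.14 for partners and substrates (7 of 10), 0.18 for other kelch genes (15 of 22) and 0.03 for other ankyrin-SOCS genes (7 of 12). All 8626 genes had a median of 0.12, with 59.8% higher in replicate 2. One gene of these lists passed 2-fold with at least 50 summed reads. Klhl9 had 17 reads in replicate 1 and 44 in replicate 2 (15.4 and 31.4 CPM), a ratio of 2.04. With median-ratio or TMM scaling its fold, with the prior count, was 1.87 or 1.89, which is under 2-fold.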

How the data were processed

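The deposited values are whole-number counts of reads for each transcript model, which the authors made with TALON for each library alone (mm10, GENCODE M21), per the file headers and deposited notes. For the aligner, versions and filters, the sources used here give no statement. Models of annotated transcripts carried the annotated ends. The 9 genes, the gene lists and the tests were chosen with earlier results of these data known.

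Counts were summed per annotated gene over the known, ISM (partial chain), NIC (annotated splice sites joined in another way), NNC (unannotated splice site) and genomic classes. Spike-in reads (49988 and 31554) stayed out of library sizes. Endogenous reads numbered 1132759 and 1449423, and 3 counts equal 2.71 and 2.14 CPM. Log2 ratios used a prior count of 0.5. Antisense-class models were counted where they overlapped a gene's GENCODE M21 span on the other strand. The spans in the deposited annotation stopped short for some genes and were not used. Intron chains were matched exactly between libraries. Named genes were all 9 genes, antisense models with at least 5 reads in either library, up to 4 genes of each pathway list by mean CPM, and any list gene past 2-fold. Python 3.11.15, SciPy 1.17.1 and edgeR 4.0.16 (TMM factors only) were used, and the scripts were tested on simulated counts. Alternatives were other scalings, read sets, minimums, overlap rules and leaving out each library.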

Additional observations from a re-analysis of the deposited data

How the results depend on the processing

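The count of 0 adaptor genes over 2-fold apart was the same under median-ratio and TMM scaling, with annotated transcripts only, without genomic reads, and with a minimum of 10 or 200 summed reads (7 genes tested in the last). The number of adaptor genes with an antisense share of at least 10% in each library, 1 as reported, became 4 with every model on the opposite strand (Klhl31, Klhl40, Klhl41, Asb5), 0 with spliced antisense models only, 2 with annotated sense transcripts only (Klhl31, Klhl41), and 2 at a threshold of 5% (Klhl31, Klhl41). It was 1 to 2 when either library was left out, as Klhl41 passes in replicate 1 alone. No share of all genes is given beside these alternative counts, so they cannot be set against a background. The mean antisense share of Klhl31 ran from 96.2 to 97.1% over single libraries, became 98.6% with annotated sense transcripts only, and fell to 0.56% with spliced antisense models only, of which there is 1 read. The median level of the 9 genes was 115 CPM, and 137 CPM with annotated transcripts only, over the smaller total of such reads (110.2 to 119.8 over single libraries). The median share of the leading transcript was 76.0%, and 71.8% with genomic reads kept in the total (74.5 to 77.4% over single libraries). Of 27 alternative mean levels of single genes with both libraries kept, 18 moved by less than 1 SD and 9 by more. Median-ratio scaling moved the median log2 ratio of all 4294 genes from 0.11 to 0.0039, and the number of adaptor genes higher in replicate 2, 5 as reported, ran from 2 to 5 over the alternatives. All 45 alternative log2 ratios stayed within the counting interval of the reported one. No paired analysis was possible because the libraries form 1 group. With 2 libraries the SD is itself uncertain. Outside Asb2, 62 to 268 sense reads per gene leave intervals of several percentage points on the share of the leading chain.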
